A study of Drosophila melanogaster with 18 samples.

Results

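RNA levels were compared directly between DL1 cells, a haemocyte-like cell line of Drosophila melanogaster, that had received double-stranded RNA (dsRNA) against Pp2A-29B and DL1 cells that had received dsRNA against IntS6. Each of the 2 groups had 3 libraries, 1 from each of the replicate sets A, B and C, which made 6 of the 18 libraries in the study. All gene entries outside ribosomal RNA belong to the comparison. They numbered 17615 of 17753, and 8666 of them had enough counts to be tested. A log2 fold change above 0 below means a higher level with Pp2A-29B dsRNA, and a gene is called higher or lower where its adjusted p was under 0.05.

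The study asked how the DL1 transcriptome responds when subunits of Integrator or of protein phosphatase 2A (PP2A) are depleted. Its 6 groups of 3 libraries were Mock (no dsRNA), B-gal dsRNA (a control against a bacterial gene), and dsRNA against IntS4, IntS6, mts or Pp2A-29B. In the dsRNA groups, cells without any further genetic change were bathed in 2 µg of dsRNA and grown for 3 days at 25 °C, and the labels give the genotype as depletion of the targeted gene. The design text calls the sets biological replicates. All groups are populations of 1 cell line, so the values describe that line, and bulk RNA cannot tell fewer cells of a kind from less RNA per cell.

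Integrator is a nuclear complex that binds RNA polymerase II near promoters, cleaves nascent RNA and thereby ends transcription early at many protein-coding genes. It also cleaves the 3′ ends of many small nuclear RNAs (snRNAs). PP2A is a serine/threonine phosphatase built from a catalytic subunit (mts, microtubule star, in the fly), a scaffold subunit (Pp2A-29B) and exchangeable regulatory subunits. A PP2A core enzyme associates with Integrator, where it removes phosphates from the transcription machinery, and IntS6 is a subunit known for contacting it. PP2A also acts outside Integrator, in the cell cycle, in kinase signalling and on the cytoskeleton. A direct comparison of the 2 groups therefore shows where loss of the PP2A scaffold and dsRNA against its Integrator contact left different RNA levels.

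Library totals in the compared groups ran from 13445318 counts (IntS6 replicate C) to 17861270 counts (IntS6 replicate A). Ribosomal RNA took 71.16 to 72.15% of them with Pp2A-29B dsRNA and 65.75 to 69.55% in the libraries labelled IntS6 dsRNA, so the ranges did not overlap. With ribosomal RNA removed before the fit, 1716 genes were higher and 2008 lower, against 1524 and 2140 with it kept. Outside ribosomal RNA, 4352809 to 4630462 counts remained per Pp2A-29B library and 4494406 to 5438936 per library labelled IntS6. Levels are given as CPM, the count scaled to the TMM-adjusted library total. DL1 cells carried some plasmatocyte RNAs in the B-gal libraries, with srp at 120 to 127 CPM, eater at 36.3 to 48.3 CPM and He at 25.0 to 35.5 CPM. There drpr was at 45.7 to 56.5, crq at 15.8 to 24.1 and Pxn at 5.01 to 6.93 CPM. Other markers of that list were low: Hml (2.27 to 3.78 CPM), Col4a1 (0.835 to 1.14), vkg (0.568 to 0.614), NimC1 (0.114 to 0.501) and Sr-CI (0.0682 to 0.278). The ovarian marker tj was at 148 to 171 CPM in the same libraries. The crystal cell enzymes PPO1 and PPO2 stayed at or under 0.136 CPM in all 9 libraries of the B-gal, Pp2A-29B and IntS6 groups, and the yolk protein gene Yp1 had no count in them.

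Pp2A-29B (2L:8366038-8370090 in BDGP6) was low where it was targeted. Its level was 44.4, 43.2 and 50.04 CPM in replicates A, B and C with Pp2A-29B dsRNA, against 121, 129 and 125 CPM in the libraries labelled IntS6 dsRNA and 148 to 165 CPM with B-gal dsRNA. The groups did not overlap, and the log2 fold change was -1.45 ± 0.08 (SE, n = 3 per group, edgeR adjusted p = 1.1e-10). 

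The IntS6 transcript (X:5738663-5747254) went against its label. It stood at 150, 53.9 and 47.5 CPM in the libraries labelled IntS6 dsRNA, at 45.9, 42.2 and 40.1 CPM with Pp2A-29B dsRNA and at 33.3, 29.4 and 26.8 CPM with B-gal dsRNA. Replicate A of the labelled group stood far above the other two, and no library of that group was below any other library named here. The log2 fold change of -0.98 ± 0.28 (edgeR adjusted p = 0.0096) became -0.24 with an adjusted p of 0.157 without that library. Total RNA counts do not show the protein, and in these counts reads of the added dsRNA cannot be told apart from reads of the transcript it targets. This holds for each targeted gene in its own group, so the group is called "labelled IntS6 dsRNA" throughout, and every direction below rests on that label.

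The other targeted genes served as checks. The catalytic subunit mts stood at 158, 153 and 132 CPM with Pp2A-29B dsRNA and at 100.9, 122 and 94.1 CPM in the libraries labelled IntS6 dsRNA. These groups did not overlap, with a log2 fold change of 0.48 ± 0.14 (adjusted p = 0.0095), and the adjusted p was 0.051 without IntS6 replicate C. IntS4 was at 10.5, 10.3 and 9.78 CPM against 13.8, 11.1 and 13.2 CPM, a difference that did not pass the test (log2 fold change -0.32 ± 0.53, adjusted p = 0.66). Of all genes tested, 17.6% were higher with Pp2A-29B dsRNA and 24.7% lower. Among 15 tested genes of PP2A subunits and partners, 7 were higher (46.7%) and 2 lower (13.3%), with a median log2 fold change of 0.19 over the list. The higher ones included Mob4 (0.35) and GckIII (0.45), both parts of the STRIPAK complex that holds PP2A, and the lower ones were Pp2A-29B itself and CG4733 (-1.67), a predicted regulatory subunit. Without Pp2A-29B replicate B or IntS6 replicate C, 4 of the list were higher. Other catalytic subunits of the same phosphatase family were higher in 3 and lower in 0 of 8, with the PP1 gene Pp1-87B at 0.68 ± 0.10. Of 13 tested Integrator subunits, 3 were higher and 3 lower, 23.1% each way and near the shares of all genes. The higher ones were IntS10 at 0.98, IntS11 at 0.66, and IntS12 at 0.40, named after its value was seen. The lower ones were omd at -1.74, IntS6, and IntS2 at -0.36. The level of omd was 21.7, 22.5 and 20.8 CPM with Pp2A-29B dsRNA and 73.1, 69.1 and 75.6 CPM in the labelled IntS6 libraries. Its level with B-gal dsRNA, 31.9 to 36.7 CPM, lay between these groups.

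**Figure D1:**
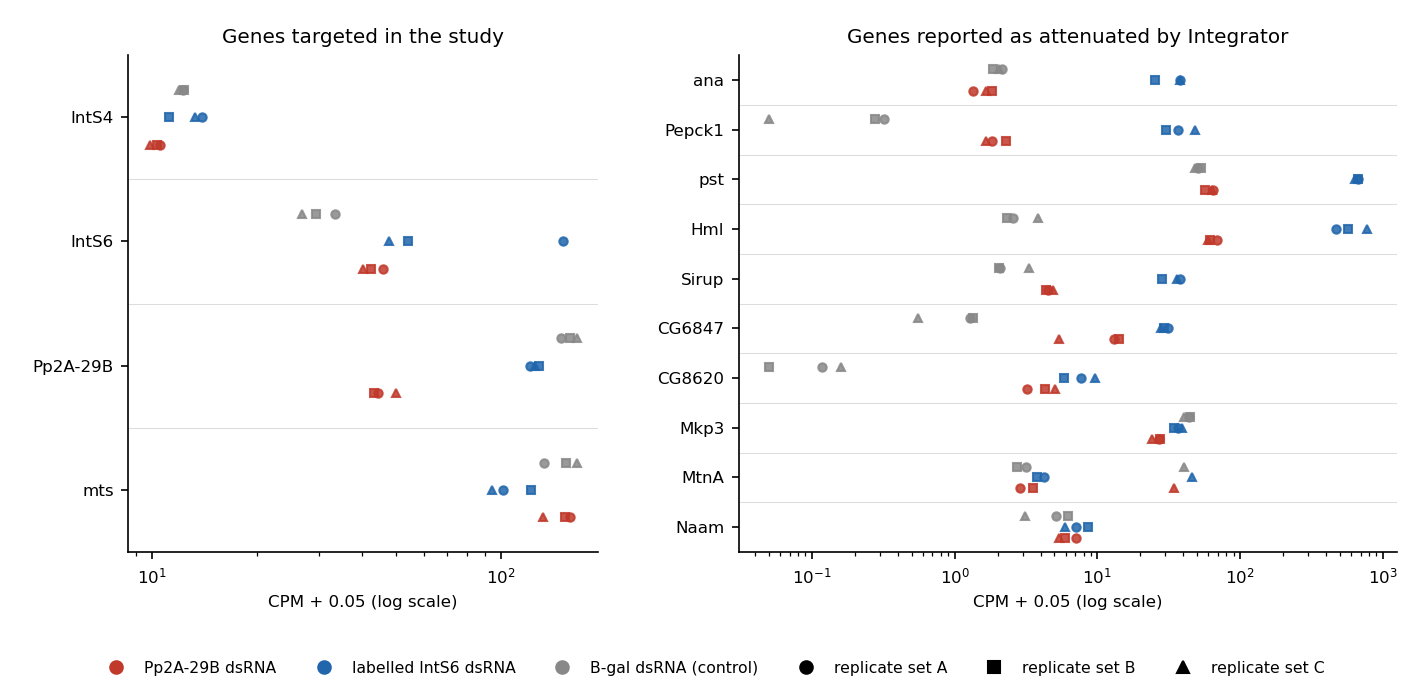
Level in every library of the 4 genes targeted in the study (left) and of 10 genes reported as attenuated by Integrator (right), as CPM plus 0.05 on a log axis, with each point 1 library, colour for the group and shape for the replicate set. Pp2A-29B is low with its own dsRNA, IntS6 replicate A is high in IntS6, and pst, ana, Pepck1, Hml and Sirup are high in all 3 libraries labelled IntS6 dsRNA.

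Over all genes tested, 1524 were higher with Pp2A-29B dsRNA (17.6%) and 2140 were lower (24.7%), by edgeR's quasi-likelihood test with Benjamini-Hochberg adjustment. The median log2 fold change of all genes was -0.04, with quartiles at -0.49 and 0.29. Large differences were mostly on the lower side. At least 2-fold, 271 genes were higher and 1139 lower; at least 4-fold, 72 and 533; and at least 16-fold, 14 and 159. In 3508 of the 3664 called genes the 3 and 3 libraries did not overlap. A call favours such genes, and their number among all genes tested was not counted, so this is a description only.

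The control cells show on which side a difference lay. For the 1139 genes at least 2-fold lower, the median log2 difference from B-gal was 2.36 in the labelled IntS6 libraries (quartiles 0.88 and 4.67) and 0.27 with Pp2A-29B dsRNA (quartiles -0.71 and 1.67). For the 271 genes at least 2-fold higher, it was -0.24 in the labelled IntS6 libraries and 1.27 with Pp2A-29B dsRNA. Both differences use the same B-gal libraries and the genes were selected on their difference, so these medians are descriptions. Genes that were nearly silent in control cells were common on the lower side: the mean B-gal level was under 1 CPM for 25.2% of the lower genes, 9.25% of the higher genes and 15.4% of all genes tested. The lower genes were also longer, with a median span on the chromosome of 4998 bases against 3024 for the higher genes and 2693 for all. Their median exon length was 2680 bases, against 2315 and 2075.

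The 10 largest decreases among genes of at least moderate level (log2 CPM averaging 2 or more, no overlap between groups) were pros, CG9896, tbc, Eaat1, sev, CG2150, rdo, CG8170, rk and amon, with log2 fold changes from -7.11 to -6.09. All 10 were near 0 in the B-gal libraries as well, at 0.681 CPM or less. The homeodomain factor gene pros (3R:11328480-11407627), which acts in neural and endocrine cell fate, was at 32.6, 27.0 and 32.1 CPM in the labelled IntS6 libraries and at 0.185, 0 and 0.453 CPM with Pp2A-29B dsRNA. It was present in every library of the first group and close to absent from the second (-7.11 ± 0.33, adjusted p = 9.8e-12). The glutamate transporter gene Eaat1 showed 25.8, 22.4 and 27.5 CPM against 0.309, 0.198 and 0.130 CPM (-6.83 ± 0.23, adjusted p = 1.2e-13). The receptor tyrosine kinase gene sev, known for photoreceptor fate, had 11.3, 8.88 and 14.8 CPM against 0.0618, 0.198 and 0.0647 CPM. The hormone receptor gene rk, which receives bursicon, had 30.7, 25.6 and 21.5 CPM against 0.247, 0.132 and 0.647 CPM. The prohormone convertase gene amon had 19.0, 15.7 and 23.4 CPM against 0.494, 0.132 and 0.194 CPM. In none of these genes did a library of 1 group come near the other group. For CG9896 the Pp2A-29B libraries held only 3 counts, all in replicate A, against 422 in the labelled IntS6 libraries, so that the level was 138 times lower with an exact 95% counting interval of 46.8 to 671. Leaving out 1 library moved 6 of these fitted values by more than 1.5-fold: pros to -8.21, tbc to -7.47 and rk to -7.03 without Pp2A-29B replicate C, sev to -7.36 without Pp2A-29B replicate B, and amon to -6.82 and CG9896 to -10.1 without Pp2A-29B replicate A.

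Genes that earlier work reported as attenuated by Integrator lay on the same side. Of 10 tested, 8 were lower and 0 higher, with a median log2 fold change of -2.17 against -0.04 for all genes. Their summed level was 182 to 205 CPM with Pp2A-29B dsRNA, 1342 to 1659 CPM in the labelled IntS6 libraries and 111 to 142 CPM with B-gal dsRNA. Most of the sum in the labelled IntS6 libraries came from pst and Hml, given below. The antiviral factor gene pst (3L:7357275-7360263) stood at 64.9, 57.0 and 63.1 CPM, against 673, 668 and 640 CPM (-3.42 ± 0.09, adjusted p = 1.3e-14). The B-gal libraries were at 48.6 to 53.1 CPM, so pst was slightly above control with Pp2A-29B dsRNA and far above it in the labelled IntS6 libraries. The secreted glycoprotein gene ana, at 1.30, 1.78 and 1.62 CPM with Pp2A-29B dsRNA against 37.9, 25.2 and 37.6 CPM, was under its B-gal level of 1.82 to 2.12 CPM (-4.42 ± 0.22). Pepck1, the gluconeogenic enzyme gene, had 1.79, 2.24 and 1.62 CPM against 36.5, 30.1 and 48.6 CPM. Hml, which encodes the clotting protein hemolectin, had 69.0, 61.7 and 59.8 CPM against 470, 565 and 768 CPM, with 2.27 to 3.78 CPM in B-gal. For both pst and Hml, every value with Pp2A-29B dsRNA lay above every B-gal value and below every labelled IntS6 value.

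Smaller differences were seen for the rest of these genes. Sirup was lower by -2.90, CG6847 by -1.43 and the ERK phosphatase gene Mkp3 by -0.50 on the log2 scale. CG8620, at -0.89, no longer passed the test without Pp2A-29B replicate A (-0.73, adjusted p = 0.070) or without IntS6 replicate C (-0.70, adjusted p = 0.075). Naam had 6.98, 5.86 and 5.31 CPM against 7.01, 8.61 and 5.86 CPM, and the groups overlapped. The metallothionein gene MtnA had 2.84, 3.49 and 34.4 CPM against 4.20, 3.73 and 45.9 CPM, so replicate set C was high in both groups, as it was with B-gal dsRNA (40.1 CPM). Neither gene passed the test (log2 fold changes of -0.24 and -0.40, adjusted p = 0.42 and 0.84). MtnA was lower in each of the 3 same-letter pairs and passed the test with the replicate letter as a block (-0.38, adjusted p = 0.019), and without IntS6 replicate C its value was 1.77 (adjusted p = 0.446).

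**Figure D2:**
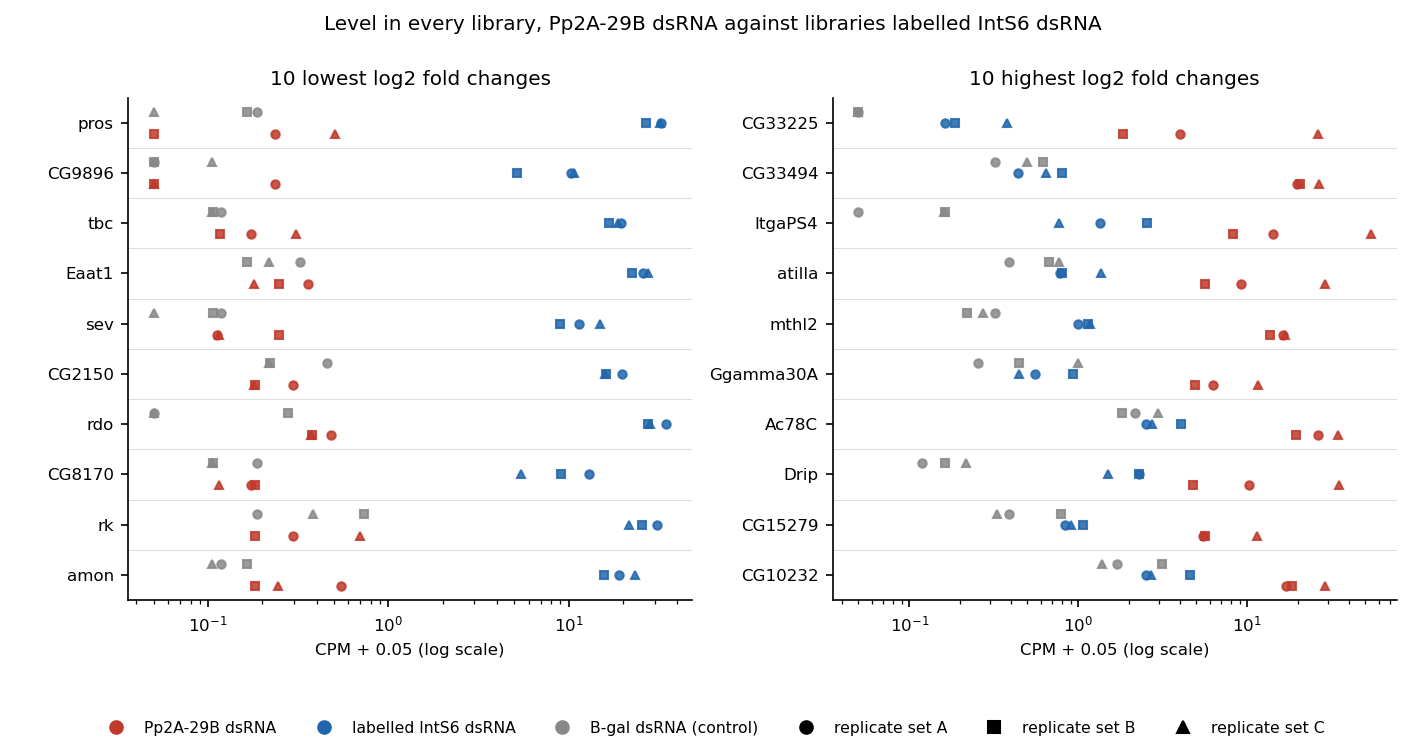
Level in every library of the 10 genes with the lowest (left) and the 10 with the highest log2 fold changes (right), as CPM plus 0.05 on a log axis, with each point 1 library, colour for the group and shape for the replicate set. On the left the Pp2A-29B and B-gal points lie together under 1 CPM; on the right several Pp2A-29B replicate C points (triangles) lie well above replicates A and B.

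The 10 largest increases were CG33225, CG33494, ItgaPS4, atilla, mthl2, Ggamma30A, Ac78C, Drip, CG15279 and CG10232, with log2 fold changes from 5.76 to 2.74. CG33494 stood at 19.7, 20.6 and 26.7 CPM with Pp2A-29B dsRNA and at 0.392, 0.746 and 0.592 CPM in the labelled IntS6 libraries (5.28 ± 0.36, adjusted p = 1.8e-09). The receptor gene mthl2, of the methuselah-like family, had 16.2, 13.6 and 16.6 CPM against 0.953, 1.08 and 1.12 CPM (3.88 ± 0.20, adjusted p = 4.7e-11). The adenylate cyclase gene Ac78C had 26.2, 19.3 and 34.6 CPM against 2.47, 4.00 and 2.70 CPM. Genes entered these 10 only where the groups did not overlap. The labelled IntS6 libraries overlapped the B-gal range for CG33494 (0.273 to 0.568 CPM) and Ac78C (1.76 to 2.89 CPM), and were above it for mthl2 (0.170 to 0.273 CPM).

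A second set of genes was highest in Pp2A-29B replicate C. The serine protease homologue gene CG33225 had 3.95, 1.78 and 26.3 CPM against 0.112, 0.136 and 0.329 CPM, the integrin gene ItgaPS4 had 14.1, 8.24 and 53.9 CPM against 1.29, 2.51 and 0.724 CPM, and the water channel gene Drip had 10.3, 4.74 and 35.02 CPM against 2.24, 2.24 and 1.45 CPM. Replicate C held most of the Pp2A-29B level in each of them. Without Pp2A-29B replicate C the log2 fold change of CG33225 went from 5.76 to 3.88 (adjusted p = 0.031), that of ItgaPS4 from 4.08 to 2.90, that of atilla from 3.95 to 2.98 and that of Drip from 3.07 to 1.92 (adjusted p = 0.019). CG33225 was at 6.35 without IntS6 replicate C.

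ItgaPS4 and atilla are markers of lamellocytes, the flat haemocytes that encapsulate parasites. Of 9 tested lamellocyte markers, 5 were higher and 1 lower, with a median log2 fold change of 0.40. The surface protein gene atilla had 9.08, 5.54 and 28.7 CPM with Pp2A-29B dsRNA against 0.729, 0.746 and 1.32 CPM. The other higher members were msn, cher and rhea, and Pvr, a growth factor receptor, was the lower one (91.8, 89.9 and 116 CPM against 202, 202 and 226 CPM, -1.08 ± 0.13). The phenoloxidase gene PPO3, which lamellocytes are known for, overlapped between the groups, at 44.98, 28 and 83.8 CPM against 54.5, 59.4 and 70.2 CPM, and both were above the B-gal level of 5.18 to 6.30 CPM. The summed level of the 9 genes was 1201 to 1698 CPM against 1126 to 1310 CPM, so the sums overlapped too. Without IntS6 replicate C, or without Pp2A-29B replicate C, 3 members were higher, and 2 were lower in the latter case.

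Plasmatocyte genes differed more often and mostly downwards. All 11 tested members of this list passed the test, 9 of them lower and 2 higher, against 24.7% lower and 17.6% higher of all genes, and the median was -1.51. Beside Hml, the type IV collagen gene vkg was lower, at 4.14, 3.62 and 2.78 CPM against 11.6, 10.6 and 7.90 CPM. The higher members were the phagocytic receptor gene eater, at 88.0, 86.2 and 98.3 CPM against 49.4, 51.4 and 50.7 CPM (0.85 ± 0.11), and the haemocyte surface gene He (0.58 ± 0.17). The list's summed level was 451 to 514 CPM against 936 to 1225 CPM, with 264 to 294 CPM in B-gal, and no marker was at 0. Hml alone held 470, 565 and 768 CPM of the sums in labelled IntS6 replicates A, B and C. Most of the difference between the sums thus came from that gene. Crystal cell markers summed to 3.24 to 4.32 CPM against 10.4 to 15.8 CPM. Of 3 tested, lz and peb were lower and none was higher, and only 1 was lower without Pp2A-29B replicate A. Of 12 markers found for ovarian, neuronal, germ line and fat body cells, 4 were tested (fs(1)Yb, tj, piwi and elav). All 4 were lower, and their sum was 93.1 to 108 CPM with Pp2A-29B dsRNA, 152 to 187 CPM in the labelled IntS6 libraries and 210 to 243 CPM in B-gal. The part of these markers in the other results was not tested.

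**Figure D3:**
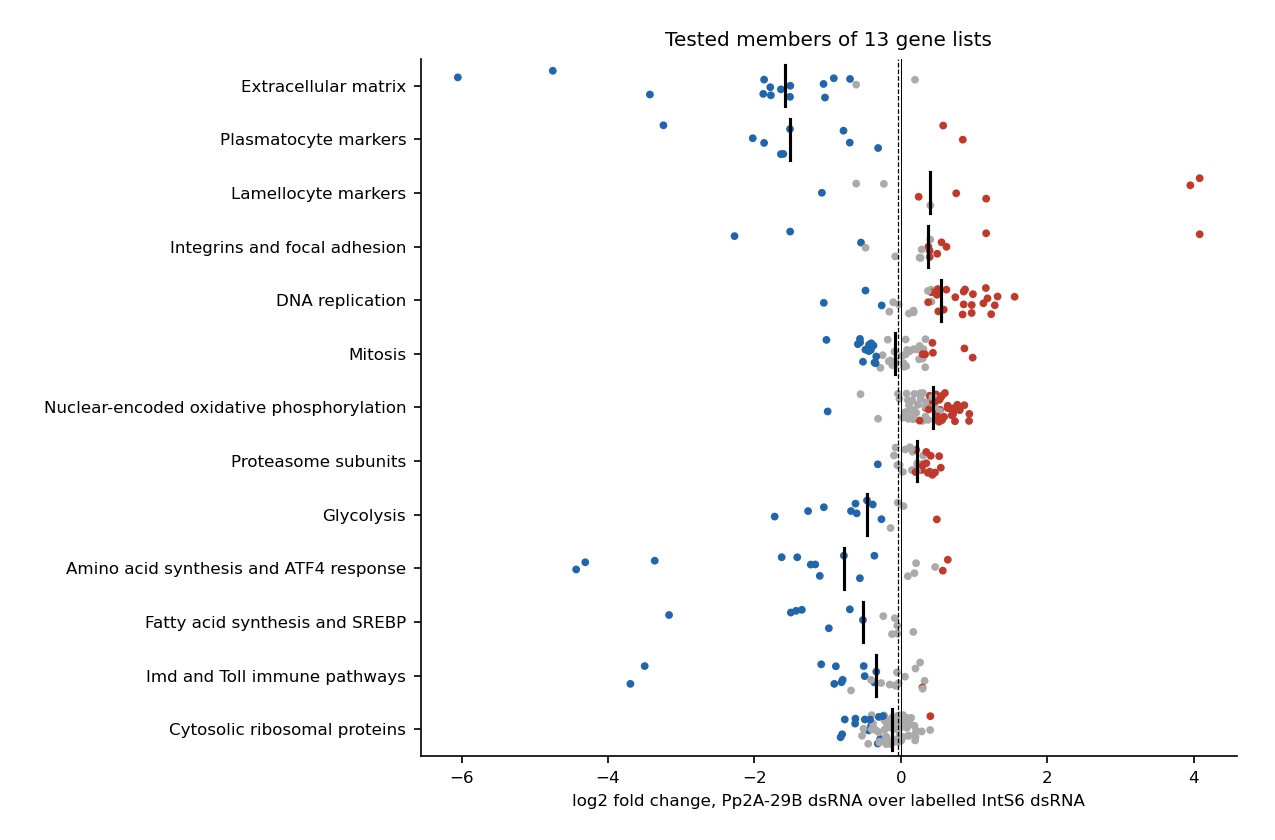
Log2 fold change of each tested member of 13 gene lists, with Pp2A-29B dsRNA over labelled IntS6 dsRNA on the x axis, coloured red for higher, blue for lower and grey for not called. Black bars mark the list medians and the dashed line the median of all genes (-0.04); extracellular matrix and plasmatocyte genes lie to the left, and DNA replication and oxidative phosphorylation genes to the right.

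Extracellular matrix genes were lower almost throughout. Of 16 tested, 14 were lower and 0 higher, with a median of -1.58, and the summed level was 1916 to 2300 CPM against 4758 to 6143 CPM. The B-gal sums, 1831 to 2336 CPM, spanned a range that holds those of the Pp2A-29B libraries. The largest difference was in Tig (2L:6415179-6423310), which encodes the integrin ligand tiggrin, at 7.04, 5.601 and 8.42 CPM against 442, 365 and 591 CPM (-6.05 ± 0.19, adjusted p = 8.5e-14). The perlecan gene trol had 187, 200 and 160 CPM against 598, 534 and 749 CPM (-1.78 ± 0.14). Loxl1 (0.19) and Mmp1 (-0.61) were the 2 members that did not pass.

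Of 17 tested integrin and focal adhesion genes, 8 were higher and 3 lower, with a median of 0.38, and 5 were higher without IntS6 replicate C. The alpha integrin genes mew and if, whose products bind laminin and tiggrin, were lower: mew had 7.66, 7.51 and 6.15 CPM against 33.5, 37.6 and 31.9 CPM (-2.27 ± 0.21), and if was at -1.51 ± 0.23. The higher ones included the alpha integrin gene ItgaPS4, described above, and genes of cytoplasmic adhesion proteins such as Zyx (zyxin), at 33.2, 38.4 and 31.7 CPM against 22.1, 23.8 and 21.1 CPM (0.62 ± 0.10). Tubulin genes were divided as well, with 2 higher and 2 lower of 7 (28.6% each way, against 17.6% and 24.7% of all genes). The abundant betaTub56D and alphaTub84B were lower (-0.91 ± 0.13 and -0.73 ± 0.11), and betaTub97EF (0.94 ± 0.21) and gammaTub37C (0.75 ± 0.12) were higher.

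DNA replication genes were the list with the largest share of higher members. Of 34 tested, 22 were higher and 3 lower, or 64.7% against 17.6% of all genes, with a median of 0.55. Cyclin E (CycE), which starts S phase, had 75.8, 74.0 and 82.7 CPM with Pp2A-29B dsRNA, against 30.0, 33.6 and 29.4 CPM (1.32 ± 0.09, adjusted p = 2.5e-09). The DNA polymerase alpha gene PolA1 had 45.8, 41.97 and 42.9 CPM against 22.03, 24.1 and 20.7 CPM (0.97 ± 0.09). With B-gal dsRNA CycE was at 58.4 to 65.6 CPM and PolA1 at 40.4 to 47.0 CPM. Both were under these ranges in the labelled IntS6 libraries, while with Pp2A-29B dsRNA CycE was above and PolA1 within its range. The list's sum had the same order, at 881 to 946 CPM with Pp2A-29B dsRNA, 665 to 737 CPM with the IntS6 label and 882 to 928 CPM in B-gal. The ribonucleotide reductase gene RnrS was lower (-1.05 ± 0.10), as were RfC4 (-0.48 ± 0.10) and E2f1, named after its value was seen (-0.26). Genes of mitosis were not shifted in this way. Of 45, 6 were higher (13.3%) and 14 lower (31.1%), against 17.6% and 24.7% of all genes, with a median of -0.07. CycA was lower (-1.02 ± 0.09) and the anaphase activator gene fzy higher (0.44 ± 0.10). Without IntS6 replicate C, 3 mitosis genes were higher.

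Nuclear genes of oxidative phosphorylation also lay on the higher side. Of 70 tested, 34 were higher and 1 (ND-51L2, named after its value was seen) lower, with a median of 0.43, and the sum was 2799 to 3149 CPM against 2143 to 2241 CPM. Complex I gene ND-B16.6 had 80.0, 76.4 and 93.2 CPM against 43.4, 45.8 and 41.2 CPM (0.94 ± 0.11). The B-gal sum of 3293 to 3656 CPM was above both groups, so these RNAs were under control level in each and further under it with the IntS6 label. Of 13 genes of the mitochondrial genome, 0 were called in either direction by edgeR at the adjusted threshold, 4 had an unadjusted p under 0.05 and DESeq2 called 2 higher. The replicate block gave 4 higher and 1 lower. Proteasome subunits were higher in 16 of 32 and lower in 1 (Rpn1), with a median of 0.23. Prosbeta2 had 85.01, 85.13 and 85.06 CPM against 62.2, 58.6 and 56.7 CPM (0.52 ± 0.09). This count depended on single libraries: 10 were higher without IntS6 replicate A, 9 without Pp2A-29B replicate A and 8 without IntS6 replicate C. Rpn1 was not called without Pp2A-29B replicate A or B.

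All 3 tested gluconeogenesis genes were lower, Pepck1, fbp (-1.90 ± 0.19) and PCB (-0.75 ± 0.14). In glycolysis 9 of 13 were lower and 1 higher, with a median of -0.46. Gpdh1, which links glycolysis to glycerol phosphate, had 17.7, 16.9 and 17.0 CPM against 58.8, 61.7 and 49.96 CPM (-1.72 ± 0.10), and Pgk had 19.8, 21.0 and 23.4 CPM against 52.2, 40.8 and 61.2 CPM (-1.27 ± 0.15). Gpdh1 with Pp2A-29B dsRNA was slightly above the B-gal range of 15.5 to 15.9 CPM. Pgk with Pp2A-29B dsRNA was under the B-gal range of 35.5 to 47.6 CPM, which the labelled IntS6 libraries overlapped.

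Amino acid synthesis and ATF4 response genes were lower in 11 of 17 and higher in 2, with a median of -0.78. The serine synthesis enzyme gene CG6287 had 0.741, 1.12 and 0.712 CPM against 21.0, 13.5 and 16.8 CPM (-4.31 ± 0.26), and asparagine synthetase (AsnS) was at -1.41 ± 0.09. In fatty acid synthesis 7 of 13 were lower and 0 higher (median -0.52), although DESeq2 called 1 higher. FASN1, the main fatty acid synthase gene, had 512, 564 and 552 CPM against 1337, 1252 and 1567 CPM (-1.35 ± 0.14), and the acyl-CoA synthetase gene bgm was at -3.17 ± 0.33. The fatty acid oxidation list went the other way in 7 of 12 genes, with 2 lower and a median of 0.39. The carnitine carrier gene colt was at 1.18 ± 0.15. The list also counts the mitochondrial glycerol phosphate oxidase gene Gpo1 (1.4 ± 0.14), which is not itself a gene of fatty acid oxidation. The peroxisomal oxidase gene Acox57D-p was lower (-2.51 ± 0.11), at 13.0, 11.5 and 15.6 CPM against 76.1, 69.6 and 81.9 CPM. The second lower gene, whd (-0.58 ± 0.20, with overlapping groups), was not called without IntS6 replicate A or C or without Pp2A-29B replicate A or B, where 1 was lower.

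**Figure D4:**
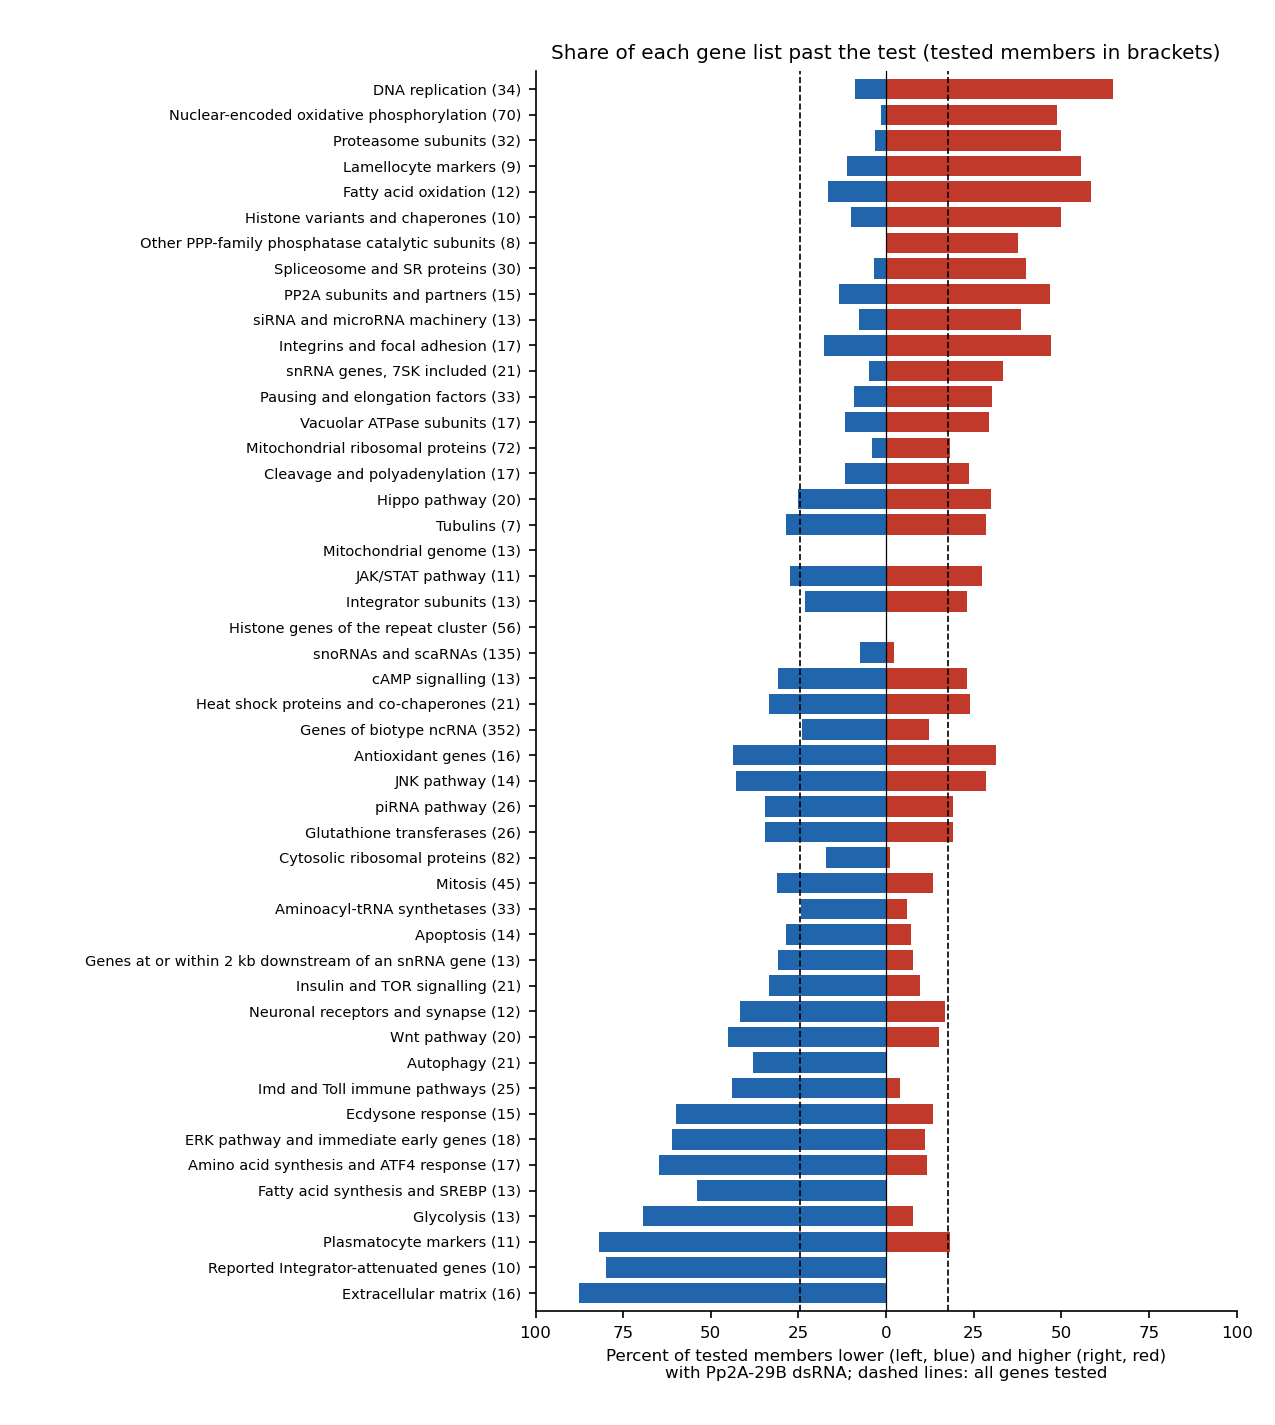
Percent of the tested members of each gene list called lower (blue, left) and higher (red, right) with Pp2A-29B dsRNA, for the lists with at least 7 tested members, whose number is in brackets. Dashed lines mark the shares over all genes tested (24.7% lower and 17.6% higher); extracellular matrix stands at the bottom with 87.5% lower and DNA replication at the top with 64.7% higher.

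In the ERK pathway and its immediate early genes, 11 of 18 were lower and 2 higher, with a median of -0.53. The nuclear receptor gene Hr38, an activity-induced gene, had 0.803, 0.725 and 1.17 CPM against 15.1, 16.5 and 20.1 CPM (-4.25 ± 0.30), with 2.90 to 4.57 CPM in B-gal. The EGF receptor feedback gene kek1 had 86.98, 81.7 and 80.8 CPM against 203, 200 and 182 CPM (-1.23 ± 0.10). For both genes the Pp2A-29B libraries were under control and the labelled IntS6 libraries above it. The adaptor gene drk was higher (0.60 ± 0.09), and Ras85D was the other higher gene (0.29 ± 0.10), not called without Pp2A-29B replicate A or C or without IntS6 replicate C.

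Other signalling lists were mixed, and the lower shares of the JAK/STAT (27.3%) and Hippo (25%) lists were near the 24.7% of all genes. In the JNK pathway 6 of 14 were lower and 4 higher. The TNF receptor gene wgn was at -2.52 ± 0.19 and the kinase gene bsk at 0.59 ± 0.11, and 2 were higher without IntS6 replicate A, without IntS6 replicate C or without Pp2A-29B replicate C. In JAK/STAT signalling 3 of 11 went each way. The cytokine gene upd1 had 2.78, 1.38 and 2.72 CPM against 9.92, 8.88 and 10.6 CPM (-2.09 ± 0.23), while upd3 had 13.5, 13.8 and 9.06 CPM against 5.44, 7.32 and 3.75 CPM (1.14 ± 0.26). The 2 cytokine genes thus differed in opposite directions. In the Wnt pathway 9 of 20 were lower, the receptor genes fz3 (-2.51 ± 0.20) and fz2 (-1.58 ± 0.18) among them. The 3 higher genes included sgg (0.51 ± 0.13), which encodes GSK3, and 1 was higher without Pp2A-29B replicate A. The Hippo pathway had 6 higher and 5 lower of 20, with the transcription factor gene sd at 0.58 ± 0.13 and the polarity gene crb at -0.93 ± 0.13. In insulin and TOR signalling 7 of 21 were lower (33.3%) and 2 higher (9.52%), against 24.7% and 17.6% of all genes. Sesn, a stress-induced TOR inhibitor gene, had 25.0, 21.9 and 25.0 CPM against 76.4, 76.4 and 80.5 CPM (-1.70 ± 0.10), and REPTOR, which acts when TOR is low, was at -1.75 ± 0.17. The higher TOR inhibitor gene chrb was at 0.81 ± 0.15, and the higher count was 1 without IntS6 replicate A, IntS6 replicate C or Pp2A-29B replicate A and 4 without IntS6 replicate B. Ecdysone response genes were lower in 9 of 15 and higher in 2, with the nuclear receptor genes Hr4 at -2.03 ± 0.27 and Eip75B at -0.81 ± 0.11 and br at 0.69 ± 0.09. In cAMP signalling 4 of 13 were lower (30.8%) and 3 higher (23.1%), not far from the 24.7% and 17.6% of all genes. The cyclase genes Ac13E (-2.11 ± 0.15) and rut (-1.38 ± 0.28) were lower where Ac78C (3.13 ± 0.22) was higher, and 5 were higher without Pp2A-29B replicate C.

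Immune genes of the Imd and Toll pathways were lower in 11 of 25 and higher in 1 (Tak1, not called without IntS6 replicate A, B or C or without Pp2A-29B replicate C), with a median of -0.33. The antimicrobial peptide gene CecA1 had 1.98, 1.65 and 3.24 CPM against 30.8, 32.0 and 26.2 CPM (-3.69 ± 0.19), and the NF-kappaB gene Rel had 59.8, 65.8 and 62.0 CPM against 113, 120 and 113 CPM (-0.89 ± 0.10). Rel with Pp2A-29B dsRNA was in the range of B-gal (57.2 to 72.5 CPM), and CecA1 was above it in all libraries (0.227 to 0.557 CPM). Heat shock genes were split, with 5 of 21 higher (23.8%) and 7 lower (33.3%), against 17.6% and 24.7% of all genes. The Hsp90 gene Hsp83 was at 0.65 ± 0.11 and the co-chaperone gene Droj2 at 0.67 ± 0.11, and DnaJ-1 (-1.54 ± 0.10) and Hsp27 (-1.23 ± 0.12) were lower. Without Pp2A-29B replicate A or B, 4 were lower, and the Hsp70 copies share reads and are uncertain. The antioxidant list had 5 higher and 7 lower of 16. Catalase (Cat) had 44.5, 41.9 and 39.7 CPM against 122, 120 and 128 CPM (-1.55 ± 0.13), while the mitochondrial dismutase gene Sod2 was at 0.62 ± 0.11. There, 3 were higher without Pp2A-29B replicate B, Pp2A-29B replicate C or IntS6 replicate C. Glutathione transferases had 5 higher (19.2%) and 9 lower (34.6%) of 26, against 17.6% and 24.7% of all genes. GstE11 was at -1.32 ± 0.11 and GstD9 at 0.73 ± 0.22. Without IntS6 replicate B or C, 3 were higher, and 2 without Pp2A-29B replicate C.

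Autophagy genes were lower in 8 of 21 and higher in 0, with Atg1, the initiating kinase gene, at -0.85 ± 0.11. The lower count was 5 without Pp2A-29B replicate A, Pp2A-29B replicate B or IntS6 replicate B. Apoptosis genes were lower in 4 of 14 (28.6%, near the 24.7% of all genes) and higher in 1, the Bcl-2 family gene Debcl (0.83 ± 0.12), and the caspase gene Dcp-1 was at -0.85 ± 0.15.

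Of 17 vacuolar ATPase genes 5 were higher (29.4%) and 2 lower (11.8%), against 17.6% and 24.7% of all genes. The isoforms of the membrane subunit a differed: Vha100-1 was at 0.81 ± 0.09 and Vha100-2 at -0.66 ± 0.08. Of 12 neuronal receptor and synapse genes 5 were lower and 2 higher, with the serotonin receptor gene 5-HT1B at 2.53, 1.91 and 4.47 CPM against 15.8, 10.4 and 18.6 CPM (-2.33 ± 0.32). Without IntS6 replicate A, 3 of them were lower and 0 higher, and 1 was higher without IntS6 replicate C or Pp2A-29B replicate C.

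In the translation lists most genes did not pass the test. Of 82 cytosolic ribosomal protein genes 14 were lower and 1 higher, shares of 17.1% and 1.22% that were both under those of all genes. RpL3 had 530, 557 and 509 CPM against 960, 836 and 1025 CPM (-0.82 ± 0.12). The lower count was 7 without IntS6 replicate A and 8 without IntS6 replicate C, and the higher gene, RpL39, was not called without Pp2A-29B replicate A or IntS6 replicate C, while 2 were higher without IntS6 replicate B or Pp2A-29B replicate C. Of 72 mitochondrial ribosomal protein genes 13 were higher (18.1%, near the 17.6% of all genes) and 3 lower, with mRpL55 at 1.36 ± 0.19, and 1 was lower without Pp2A-29B replicate B or IntS6 replicate C. Of 33 aminoacyl-tRNA synthetase genes 8 were lower (24.2%, near the share of all genes), AspRS at -0.88 ± 0.10, and 2 higher, of which the mitochondrial SerRS-m had 6.80, 6.13 and 5.44 CPM against 1.74, 2.10 and 1.91 CPM (1.68 ± 0.17). The second, LysRS, was not called without any 1 of Pp2A-29B replicates A, B and C or IntS6 replicates B and C.

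Spliceosome and SR protein genes were higher in 12 of 30 and lower in 1 (Rsf1, not called without IntS6 replicate A), with a median of 0.24. The SR protein gene x16 had 23.3, 24.5 and 22.5 CPM against 11.4, 11.0 and 9.35 CPM (1.15 ± 0.18), and SmD1 was at 0.99 ± 0.15. Without Pp2A-29B replicate B or IntS6 replicate C, 2 were lower. Pausing and elongation factor genes were higher in 10 of 33 and lower in 3, with Ctr9 of the Paf1 complex at 0.70 ± 0.09 and the TFIIH subunit gene CycH at -0.64 ± 0.15. Nelf-A, of the pausing factor NELF, had 53.7, 52.7 and 42.7 CPM against 34.2, 34.6 and 31.4 CPM (0.57 ± 0.11). Cleavage and polyadenylation factor genes were higher in 4 of 17 (23.5%) and lower in 2 (11.8%), against 17.6% and 24.7% of all genes. Pcf11 was at 0.40 ± 0.09 and su(f) at -0.46 ± 0.08. Genes of the siRNA and microRNA machinery were higher in 5 of 13, with drosha at 0.77 ± 0.13, and lower in 1, Ranbp21, which was not called without Pp2A-29B replicate A, B or C or IntS6 replicate C, nor by DESeq2. The RNA interference genes AGO2 (-0.16) and Dcr-2 (0.29) did not pass the test. In the piRNA pathway 9 of 26 were lower (34.6%) and 5 higher (19.2%), against 24.7% and 17.6% of all genes, and 3 were higher without IntS6 replicate C. Its gene piwi had 2.22, 3.62 and 1.62 CPM against 11.9, 10.9 and 8.95 CPM (-2.09 ± 0.23). Of 10 histone variant and chaperone genes 5 were higher and 1 lower, the higher ones including the CAF-1 chromatin assembly genes Caf1-180 (0.94 ± 0.18) and Caf1-105 (0.99 ± 0.19). Histone genes of the repeat cluster, whose copies share reads, were called in 0 of 56 by edgeR, 1 had an unadjusted p under 0.05, DESeq2 called 0, and 1 was higher without IntS6 replicate A.

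The list of small nuclear RNA genes, with 7SK included, had 7 higher and 1 lower of 21 tested, with a median of 0.72. The copies are near-identical, so their separate values are uncertain. snRNA:U4:38AB had 176, 110 and 74.96 CPM with Pp2A-29B dsRNA against 35.5, 46.4 and 32.8 CPM (1.65 ± 0.24), and snRNA:U2:34ABb had 19.7, 17.3 and 19.5 CPM against 10.9, 12.2 and 11.6 CPM (0.71 ± 0.12). The 3 Pp2A-29B values of U4:38AB were spread over more than their distance to the highest labelled IntS6 library. The lower gene was snRNA:7SKa, the scaffold RNA that holds the elongation kinase inactive, at 1130, 1107 and 1360 CPM against 2144, 1664 and 2113 CPM (-0.72 ± 0.13). The higher count was 4 without IntS6 replicate A, IntS6 replicate C or Pp2A-29B replicate A. Of 13 tested genes that overlap or begin within 2 kb downstream of an snRNA gene, 1 was higher (Esyt2, 0.47 ± 0.13) and 4 lower. These shares were 7.69% and 30.8%, against 17.6% and 24.7% of all genes. The lower ones included the actin regulator gene sick (-1.26 ± 0.11) and FASN2 (-1.50 ± 0.35). Without IntS6 replicate A, or without Pp2A-29B replicate C, 2 of the 13 were higher.

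Of 352 tested genes of biotype ncRNA, which are mostly long non-coding and antisense RNAs with some microRNA and other small RNA entries, 43 were higher (12.2%) and 85 lower (24.1%), with a median of -0.28. The lower share was about that of all genes (24.7%) and the higher share was under it (17.6%). The heat-inducible nuclear RNA lncRNA:Hsromega had 510, 552 and 380 CPM with Pp2A-29B dsRNA against 137, 141 and 127 CPM (1.83 ± 0.16, adjusted p = 3.2e-08). The labelled IntS6 libraries were within the B-gal range of 124 to 174 CPM, and all 3 Pp2A-29B libraries were above it. Of 135 snoRNA genes 3 were higher (2.22%) and 10 lower (7.41%), both under the shares of all genes, with a median of 0.03. Without IntS6 replicate B, 9 were higher. The largest value was that of snoRNA:U3:54Aa, at 310, 271 and 201 CPM against 88.1, 108 and 72.6 CPM (1.54 ± 0.28). The sources used here do not state whether reads were counted by strand, so antisense and overlapping genes are uncertain.

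The most similar comparison that shares no library is that of mts dsRNA, against the PP2A catalytic subunit, with the libraries labelled IntS4 dsRNA, another Integrator subunit. In that comparison 1948 genes were higher (22.5%) and 2607 lower (30.1%). The IntS4 transcript also went against its label there, at 227, 43.1 and 26.3 CPM in the libraries labelled IntS4 dsRNA and 11.8, 12.6 and 11.0 CPM with mts dsRNA, while mts was at 78.3, 47.6 and 66.0 CPM with its own dsRNA against 102, 107 and 106 CPM. Across the 8666 genes, the log2 fold changes of the 2 comparisons correlated at a Pearson r of 0.85, and at 0.89 over the 6134 of them whose mean log2 CPM was 2 or more. This is a description across genes, which are not independent replicates. Of the 1524 genes higher with Pp2A-29B dsRNA, 91.7% were above 0 in the mts comparison and 72.9% were called higher in it, against 45.3% of all genes above 0. Of the 2140 lower genes, 95.2% were below 0 and 80.8% called lower. The median log2 fold change of the lower genes was -1.08 here and -1.04 with mts dsRNA, and the higher genes had 0.57 and 0.59. These genes were selected by their calls in the first comparison, so the medians do not show equal sizes. Over the 6134 genes, the standard deviation of the log2 fold changes was 0.925 here and 1.175 with mts dsRNA.

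The difference between the 2 comparisons was tested gene by gene as an interaction in the same fit. It was above 0 for 337 genes (3.89%) and below 0 for 217 (2.50%), or 554 in all. With the replicate letter as a block, 1099 genes were called. The count was 275, 282, 367, 331 and 323 without Pp2A-29B replicate B, Pp2A-29B replicate A, IntS6 replicate A, mts replicate A and IntS4 replicate A, in that order.

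The 3 largest values above 0 came from genes that were high in the libraries labelled IntS4 dsRNA. CG15482 (2L:13210773-13211814) had 252, 238 and 216 CPM there, 1.80, 1.98 and 0.845 CPM with mts dsRNA, 5.56, 5.403 and 1.17 CPM with Pp2A-29B dsRNA and 3.03, 2.78 and 1.45 CPM in the labelled IntS6 libraries. Only the labelled IntS4 libraries stood apart, and the difference between the comparisons was 7.94 ± 0.59 (adjusted p = 2.1e-07). CG16820 (2L:13246232-13250189), with 29.04, 30.5 and 26.0 CPM in the labelled IntS4 libraries and at most 0.989 CPM in the 3 other groups, had a difference of 8.44 ± 0.72. Both lie at or within 2 kb downstream of an snRNA gene, as do 3 further genes with a difference above 0, Atg18b, FASN2 and sick, so that 5 of the 13 tested genes of that kind were called, against 3.89% of all genes. Of the 21 snRNA genes, 7 had a difference above 0 and 0 below. For snRNA:U4:38AB the labelled IntS4 libraries had 166, 165 and 131 CPM and the mts libraries 60.1, 53.3 and 67.5 CPM, the reverse of the order between the labelled IntS6 and the Pp2A-29B libraries. CG17290 was the third gene (7.20 ± 1.11), at 15.8, 15.7 and 18.2 CPM in the labelled IntS4 libraries and at most 0.450 CPM elsewhere.

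The 3 lowest values were those of bowl, pyd3 and Kal1. The transcription factor gene bowl was higher in both comparisons, at 7.29, 9.22 and 11.8 CPM against 6.17, 6.64 and 4.15 CPM with Pp2A-29B dsRNA and at 19.3, 15.5 and 21.2 CPM against 1.75, 2.17 and 1.12 CPM with mts dsRNA, a difference of -2.71 ± 0.37. Its higher call with Pp2A-29B dsRNA (0.74 ± 0.24) was lost without Pp2A-29B replicate C and without IntS6 replicate C. The pyrimidine degradation enzyme gene pyd3 was high in the labelled IntS6 libraries, at 9.25, 6.51 and 11.3 CPM, against 2.35, 1.78 and 1.94 CPM with Pp2A-29B dsRNA, while mts dsRNA and the IntS4 label gave 4.11, 4.38 and 5.24 CPM against 3.36, 2.73 and 4.07 CPM (difference -2.59 ± 0.35). Kal1, which encodes an extracellular matrix glycoprotein, showed the same pattern, with 22.7, 24.7 and 17.6 CPM in the labelled IntS6 libraries and 5.07, 3.69 and 8.87 CPM with Pp2A-29B dsRNA (difference -2.48 ± 0.51). Among the lists described above, other phosphatase catalytic subunits were above 0 in 4 of 8, against 3.89% of all genes, with Pp4-19C of PP4 at 2.40. Proteasome genes were below 0 in 5 of 32, against 2.50% of all genes, and above 0 in none. Reported Integrator-attenuated genes were above 0 in 5 of 10, and genes of the ERK list in 5 of 18, again against 3.89% of all genes. In the ERK list the median log2 fold change was -0.53 with Pp2A-29B dsRNA and -0.84 with mts dsRNA.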

How the data were processed

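RNA depleted of ribosomal RNA was sequenced from 18 libraries of DL1 cells in 6 groups of 3. The deposited table holds estimated counts per gene made by the authors, of which 90.1% lie within 0.005 of a whole number. Per the submitters' processing notes, Trimmomatic 0.39, featureCounts and the builds dm6 and BDGP6 were used. No source used here names the aligner. Strand setting and treatment of multi-mapping reads are not stated, so copies and overlapping genes are uncertain.

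The estimated counts were rounded and fitted with edgeR 4.0.16 in R 4.3.3 (quasi-likelihood F test, 2-sided, TMM scaling, filterByExpr with a minimum count of 10) in 1 fit of all 6 groups with 12 residual degrees of freedom. Benjamini-Hochberg adjustment ran over all 8699 entries that passed the filter, and ribosomal RNA entries were left out afterwards. Every adjusted p in the text is from this test unless another tool is named. Standard errors were derived from the F statistics. Library totals and TMM factors included ribosomal RNA, 33 entries of which passed the filter. With 3 libraries per group, p-values set a difference against the spread between libraries of the same group, estimated over all 6 groups. Counting intervals cover counting error only. The model was tested on simulated data.

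Named genes were the 4 targeted genes, the 10 highest and 10 lowest, up to 2 per direction in each of 51 lists, the 3 highest and 3 lowest differences between the comparisons, and the reported Integrator-attenuated genes. The 10 highest, the 10 lowest and the list genes needed an adjusted p under 0.05 and a mean log2 CPM of at least 2. They also needed no overlap between the groups, so their lack of overlap was set by the choice. Members and lists were chosen with earlier results of these data known. AGO2, Atg18b, Dcr-2, E2f1, IntS12, Loxl1, Mmp1, ND-51L2, PCB, PPO3, Pp4-19C, cher, msn, rhea and whd fall outside the rule and were named after their values were seen, and further markers are named as list members. Alternatives were RLE factors, DESeq2 1.42.0, no filter, unrounded counts, ribosomal RNA removed, only the groups compared, a replicate block and leaving out each library. Coordinates are those of the BDGP6 annotation (Ensembl).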

Additional observations from a re-analysis of the deposited data

Results flagged for a closer look

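The effect of Pp2A-29B dsRNA over labelled IntS6 dsRNA and that of mts dsRNA over labelled IntS4 dsRNA differed by the interaction test in edgeR, above 0 for 337 genes and below 0 for 217 genes. Among the genes named by rule, CG16820 differed by 8.44, CG15482 by 7.94 and CG17290 by 7.20 on the log2 scale, and each was high only in the 3 libraries labelled IntS4 dsRNA among the 4 groups compared. In the other direction bowl differed by -2.71, pyd3 by -2.59 and Kal1 by -2.48. All 6 genes passed the adjusted threshold under every alternative run, including each left-out library. The IntS4 transcript was higher in the libraries that carry its label, so these differences rest on labels that the targeted transcript does not bear out.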

How the results depend on the processing

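For Pp2A-29B against labelled IntS6 dsRNA, the alternatives that kept all libraries called 1527 to 1765 genes higher and 1954 to 2390 lower, and leaving out 1 library gave 1188 to 1373 and 1881 to 2099. The upper ends, 1765 and 2390, came from the replicate block. Same-letter libraries of these groups correlated at -0.0418 (A), 0.223 (B) and 0.348 (C) in their deviations over 5903 genes, so not every letter paired its libraries, and Pp2A-29B A with IntS6 B reached 0.333. Those of mts and IntS4 correlated at 0.117, 0.242 and 0.334. For the difference between the 2 comparisons the block gave 1099 genes against 554, and leaving out 1 library gave 275 to 765, the highest without Pp2A-29B replicate C; the cause was not tested. Over named genes and alternatives, 2387 values kept their side of the threshold, 58 lost it and 6 gained it. The 3 others were of MtnA, never called in them, at 0.09, 0.06 and 1.77 without Pp2A-29B replicate A, Pp2A-29B replicate B and IntS6 replicate C. MtnA passed with the block (adjusted p = 0.019). No called value reversed. Counts of list members moved by more than 1.5 times in 113 cases and by less in 1213. Removing ribosomal RNA gave 1716 higher and 2008 lower, and the median of all genes moved by under 0.1 on the log2 scale under any scaling. Genes near 0 in 1 group have fitted values that depend on few counts.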

Other observations

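Genes of chromosome 4, the small chromosome that is largely heterochromatic, were more often higher with Pp2A-29B dsRNA than those of the other arms. This was noticed after the values were seen, and it was not tested as a set. Of 74 tested genes on it, 29 were higher (39.2%) and 2 lower (2.7%), with a median log2 fold change of 0.28, against 17.6% and 24.7% of all genes. Eph, which encodes the ephrin receptor tyrosine kinase, was at 1.87 ± 0.14 and its ligand gene Ephrin at 0.73. The 2 lower genes were zfh2 (-0.66) and the kinesin gene Kif3C (-1.75). The higher count was 19 without IntS6 replicate C, its lowest value, was also over 1.5 times smaller without Pp2A-29B replicate B, and reached 37 at most. In the comparison of mts with labelled IntS4 dsRNA, 26 of the 74 genes were higher and 10 lower, with a median of 0.06. Of all genes, 22.5% were higher and 30.1% lower in that comparison. Chromosome 4 genes were thus more often higher and less often lower than all genes there as well. On the X chromosome 216 of 1482 genes were higher (14.6%) and 406 lower (27.4%), with a median of -0.13.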
